A study of Mus musculus with 6 samples.

Results

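The genes described here are 10 mouse genes known to be imprinted: Igf2r, Gnas, Impact, Snrpn, Grb10, Meg3, Ndn, Mest, Peg13 and Plagl1. They were chosen by symbol and looked up among the 14455 gene symbols that the RNA files of the study list in at least 1 library. Of the 10, Igf2r, Gnas, Impact, Grb10, Ndn and Peg13 were listed in all 4 libraries, and Snrpn, Meg3, Mest and Plagl1 in none. Each file lists only genes at 0.5 FPKM or more (read fragments per kilobase of a gene's exons, adjusted for the size of the library). RNA came from LSK cells sorted from the bone marrow of C57BL/6 mice, which lack lineage markers, carry Sca-1 and c-Kit, and include the stem and earliest progenitor cells of blood. The KO mice are labelled as knockouts of Setd2, which encodes the enzyme that places H3K36me3, a histone mark of transcribed gene bodies. Mice of both genotypes are labelled by the time since pI-pC, a synthetic double-stranded RNA used to switch on an inducible deletion. The 4 groups were young KO and young WT, at 4 weeks after pI-pC, and old KO and old WT, at 8 months after it, with 1 library of total RNA in each. The age of the animals at injection, the Cre transgene and the number of mice pooled are not given in the sources used here. With 1 library per group no difference has a replicate check, and every difference describes these libraries alone. The 2 bisulfite sequencing samples of young KO and young WT cells were not analysed here, nor was the parental allele that any RNA came from.

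An imprinted gene is transcribed mainly from the copy inherited from one parent. The choice is set by DNA methylation that one germ line places at a control region of each cluster and that dividing cells then copy, with ZFP57, ZFP445, TRIM28 and DNMT1 among the factors that keep it through early development. In the oocyte, transcription and the H3K36me3 laid down by SETD2 guide the placing of this methylation. In blood, several imprinted genes are known to be highest in stem cells and to restrain growth.

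The 4 libraries listed 13182 to 13327 gene identifiers each. Judged by the steps between low FPKM values, 5 FPKM of a 2 kb transcript stands for 90.4 and 95.8 counted units, the smallest increments of a value, in the young KO and young WT libraries, and for 181 and 179 units in the old KO and old WT libraries, with 1 unit taken as 2 of the finest steps in young and as 1 in old libraries. No source used here says whether a unit is a read or a read pair. Setd2 itself had 12.4 scaled FPKM in young KO, 14.1 in young WT, 15.5 in old KO and 15.3 in old WT cells. A gene-level value cannot show the loss of a few exons, so it checks no label, and the loss of Setd2 is not verified in these libraries. Of the genes that define the sort, Kit was between 41.1 and 61.0 and Ly6a (Sca-1) between 3.17 and 8.80 scaled FPKM, so both were present in every library. Xist, which coats the inactive X, had 279 in old KO and 291 in old WT cells and was listed in neither young library, while Y-linked Eif2s3y had 11.9 in young KO and 9.91 in young WT cells and was listed in neither old library, so age and sex cannot be told apart here. Antigen receptor segments held 0.888%, 0.637%, 4.67% and 26.8% of the summed FPKM in young KO, young WT, old KO and old WT cells.

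The starts of Igf2r, Grb10 and Ndn are shown because they differ widely in their number of CpG dinucleotides, where DNA methylation sits. The windows were taken at annotated gene starts, and whether any of them lies in a control region of imprinting was not examined. Each sequence is a RefSeq window of 300 bases (build GRCm38.p6), from 250 bases before to 50 after an annotated start, written 5′ to 3′ on the strand of the gene with CpG dinucleotides in capitals.
Igf2r, minus strand, chr17:12769657-12769956: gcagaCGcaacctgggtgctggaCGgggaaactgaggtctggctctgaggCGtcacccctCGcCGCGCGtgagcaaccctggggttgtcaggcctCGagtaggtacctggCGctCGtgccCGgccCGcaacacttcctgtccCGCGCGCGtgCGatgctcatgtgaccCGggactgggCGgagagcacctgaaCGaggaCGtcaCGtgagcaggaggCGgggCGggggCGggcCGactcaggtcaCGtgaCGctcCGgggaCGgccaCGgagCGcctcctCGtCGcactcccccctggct
Grb10, upstream start, minus strand, chr11:12037371-12037670: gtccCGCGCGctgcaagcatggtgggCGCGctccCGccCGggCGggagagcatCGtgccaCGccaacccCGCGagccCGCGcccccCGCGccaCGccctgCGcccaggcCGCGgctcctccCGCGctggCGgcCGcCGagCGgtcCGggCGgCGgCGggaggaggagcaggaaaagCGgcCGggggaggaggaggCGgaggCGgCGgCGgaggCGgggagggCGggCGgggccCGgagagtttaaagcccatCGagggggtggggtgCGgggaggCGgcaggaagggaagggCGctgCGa
Grb10, downstream start, minus strand, chr11:12027922-12028221: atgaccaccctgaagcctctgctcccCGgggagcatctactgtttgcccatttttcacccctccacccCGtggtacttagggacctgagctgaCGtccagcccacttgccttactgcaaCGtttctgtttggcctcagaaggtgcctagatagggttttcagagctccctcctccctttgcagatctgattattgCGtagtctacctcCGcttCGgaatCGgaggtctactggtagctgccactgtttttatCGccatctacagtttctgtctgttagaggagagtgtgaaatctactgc
Ndn, plus strand, chr7:62348027-62348326: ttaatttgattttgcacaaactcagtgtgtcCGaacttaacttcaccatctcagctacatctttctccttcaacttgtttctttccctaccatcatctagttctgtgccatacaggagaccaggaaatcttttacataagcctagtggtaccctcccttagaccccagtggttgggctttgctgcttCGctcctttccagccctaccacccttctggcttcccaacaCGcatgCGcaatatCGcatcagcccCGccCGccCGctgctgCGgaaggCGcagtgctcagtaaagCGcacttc

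These windows held 34 CpG at Igf2r, 45 at the upstream and 9 at the downstream start of Grb10, and 11 at Ndn. Over all 32851 windows of the table the median was 7 and the upper quartile 20. The upstream Grb10 window had more CpG than 98.1% of all windows and the Igf2r window more than 92.3%. Windows were found for 8 of the 10 genes, 18 windows in all, and none for Impact and Peg13. Gnas, with 4 windows, ranged between 16 and 40 CpG. At the 4 starts of Snrpn the windows held 2 to 7. The motif TGCCGC, the core bound by the imprint-keeping protein ZFP57, was searched on both strands and lay in 6 of the 18 windows: 1 each of Grb10 (upstream), Meg3, Plagl1 and Snrpn, and 2 overlapping windows of Mest. It lay in 11.6% of all windows. The motif itself holds a CpG and the windows were not matched for CpG content, so no enrichment can be read from these shares. A match is a description of the letters and says nothing of binding.

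**Figure D1:**
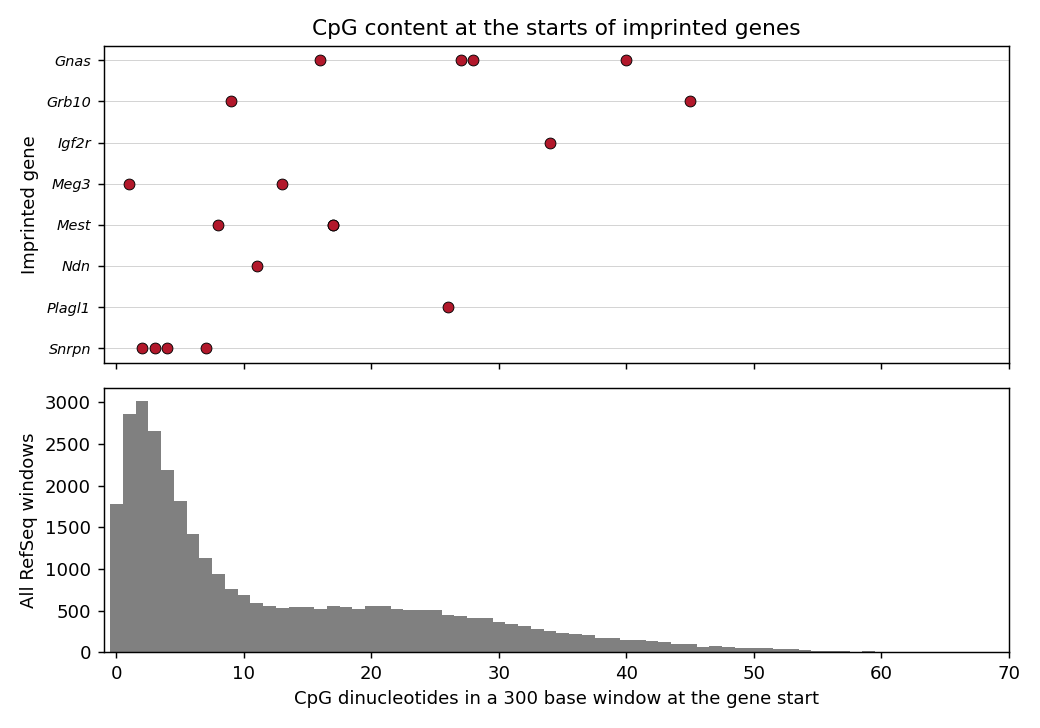
CpG dinucleotides in 300 base windows at annotated gene starts. The upper panel has 1 point per window for the 8 imprinted genes with a window, and the lower panel the number of all 32851 RefSeq windows at each CpG count. The upstream Grb10 start, at 45, lies farthest to the right of the imprinted genes.

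Among the 6 listed genes, Peg13 had the highest level per length in every library and Ndn the lowest. Peg13 lay above 84.4% to 89.0% of the genes listed in a library, and Ndn above 13.5% to 18.2%. Gnas and then Impact followed Peg13 in both young libraries and in old KO cells. In old WT cells Igf2r came between Peg13 and Gnas, at 12.5 against 12.2 scaled FPKM for Gnas, neighbours that do not differ beyond a counting error of 4.78% and 4.83% if each transcript is taken as 2 kb. Igf2r and Grb10 lay next above Ndn in those 3 libraries, with Grb10 the higher in both young libraries and Igf2r in old KO cells. The widest range over the 4 libraries was that of Igf2r, 1.70 on the log2(scaled FPKM + 1) scale, followed by Grb10 at 0.88 and Peg13 at 0.49. The range was 0.32 for Impact, 0.22 for Ndn and 0.13 for Gnas.

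**Figure D2:**
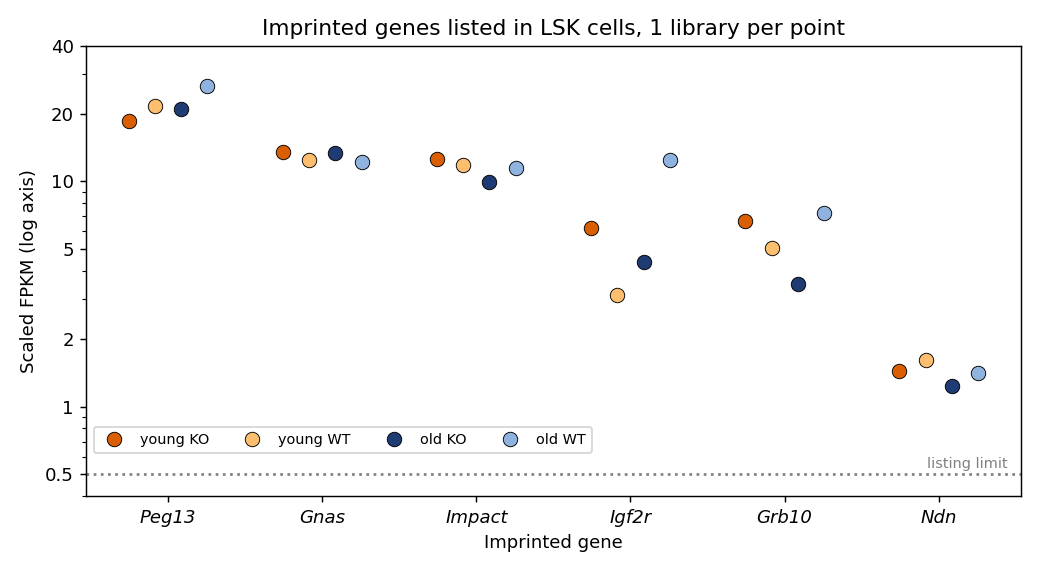
Scaled FPKM on a log axis for the 6 imprinted genes listed in LSK cells. Each point is 1 library, in the order young KO, young WT, old KO and old WT, and the dotted line is the listing limit of 0.5 FPKM. Igf2r in old WT cells stands at 12.5, above its other 3 values of 3.14 to 6.20, while Gnas stays between 12.2 and 13.5.

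The first group are genes active mainly from the maternal copy. Igf2r (ENSMUSG00000023830, chromosome 17, 12682406 to 12769664, mm10) encodes the mannose 6-phosphate receptor, which carries IGF2 to the lysosome for breakdown and so limits growth. It had 6.20 scaled FPKM in young KO against 3.14 in young WT cells, and 4.41 in old KO against 12.5 in old WT cells. The KO library was thus the higher at 4 weeks and the lower at 8 months, and the old WT library had the highest of the 4 values. The difference was 0.80 in young and -1.32 in old cells as log2(scaled FPKM + 1), a scale on which changes of weakly expressed genes come out too small. Past 2-fold in old cells Igf2r was the only 1 of the 6, lower in KO. Of the 12478 genes measured there 2.66% were lower by 2-fold or more, and 4.3% were called in either direction. Igf2r did not reach 2-fold in young cells, where 1.72% of 12409 genes were called. It passed 1.5-fold there as the only 1 of the 6, higher in KO, where 4.13% of all genes were higher by 1.5-fold or more.

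The high old WT value of Igf2r stood beside other features of that library. Igf2r overlaps Airn, the antisense RNA that silences the paternal Igf2r copy, over 28354 bases. Airn was listed in old WT cells alone, at 0.765 scaled FPKM. Whether counting used strand is not given, so reads of both cannot be told apart. The 12 markers of plasma cells summed to 72.5 scaled FPKM in young KO, 58.7 in young WT, 240 in old KO and 2224 in old WT cells, with 8, 7, 11 and 12 of 12 listed. Tnfrsf17, Ccr10, Prdm1 and Slamf7 were listed in neither young library, and Ccr10 not in old KO cells. The part of these markers in the Igf2r values was not tested. In bulk RNA, fewer cells of a type and less RNA per cell cannot be told apart. Set against young WT in place of old WT cells, a comparison chosen after the data were seen, Igf2r was higher in old KO cells, by 0.38. Those 2 libraries differ in time since pI-pC and in sex-linked genes as well as in genotype, and the 3 cannot be told apart.

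Grb10 (ENSMUSG00000020176, chromosome 11, 11930508 to 12038683, mm10) encodes an adaptor that binds the insulin and IGF1 receptors and damps their signal, and that also binds the stem cell factor receptor KIT. It had 6.71 scaled FPKM in young KO against 5.06 in young WT cells, and 3.50 in old KO against 7.27 in old WT cells. As with Igf2r, the KO value was the higher in young and the lower in old cells, and the old KO library was the lowest of the 4. The differences were 0.35 and -0.88. The ratio of old KO to old WT was 0.482, a little past 2-fold, but the difference fell short of it at the pseudocount of 1 and reached it at 0.1, where it was -1.03. At 1.5-fold Igf2r and Grb10, 2 of the 6, were lower in old KO cells, where 6.48% of all genes were. Against young WT in place of old WT cells, which adds age and sex to genotype, the difference of Grb10 was -0.43. Of all genes measured in old cells, 3.39% were as low or lower than Grb10 in KO relative to WT. For a transcript of 2 kb the 4 values would rest on 119, 103, 124 and 255 counted units in the order young KO, young WT, old KO and old WT, a counting error of 6.26% to 9.84%.

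Markers of other cell types differed between the same libraries. The 13 stem cell markers, of which Hoxb5 was listed in no library, summed to 120 in young KO against 130 in young WT cells, and to 80.9 in old KO against 105 in old WT cells. All 12 measured ones were lower in old KO than in old WT cells, and 7 of 12 were lower in young KO cells. Hlf, a transcription factor of stem cells, had 14.1 in young KO against 11.1 in young WT cells, and 6.20 in old KO against 14.7 in old WT cells, so its order over the libraries was that of Grb10. The 14 erythroid markers, all listed, summed to 668 in young KO against 280 in young WT cells, and to 184 in old KO against 274 in old WT cells. All 14 were higher in young KO and 9 of 14 lower in old KO cells, so the sums were ordered as Grb10 within each age. The 15 granulocyte and monocyte markers ran the other way, with 887 in young KO against 986 in young WT cells and 2504 in old KO against 1333 in old WT cells, and 11, 10, 15 and 15 of them were listed in that order of libraries. Camp, Ltf, Ngp and S100a9 were listed in neither young library, nor Mmp8 in young WT cells. The 12 stromal and endothelial markers summed to 33.1 in young KO against 31.3 in young WT cells, and to 21.2 in old KO against 20.5 in old WT cells, most of it from Pdgfrb and Pecam1. Of the 12, 8 were listed in young KO against 5 in young WT cells, and 2 in old KO against 7 in old WT cells. Some of these listings lay near the limit, such as Kdr, at 0.526 in young KO and 0.621 in old WT cells, and Cdh5, at 0.615 in old WT cells. The order of the counts was shared with Igf2r and Grb10 within each age. Pdgfrb and Pecam1 ran the other way, with 9.37 and 10.3 in young KO against 14.4 and 13.3 in young WT cells. In old KO cells they had 7.11 and 14.1, against 6.24 and 9.89 in old WT cells. Col1a1, a collagen gene, had 5.48 in young KO and 1.33 in old WT cells and was listed in neither of the other libraries. Col1a2 was listed in the same 2 libraries. Sparc had 1.3 in young KO against 0.688 in young WT cells and 0.760 in old WT cells and was not listed in old KO cells. Col3a1, Pdgfra and Bglap were listed in none. The part of these cell types in the values of the imprinted genes was not tested.

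**Figure D3:**
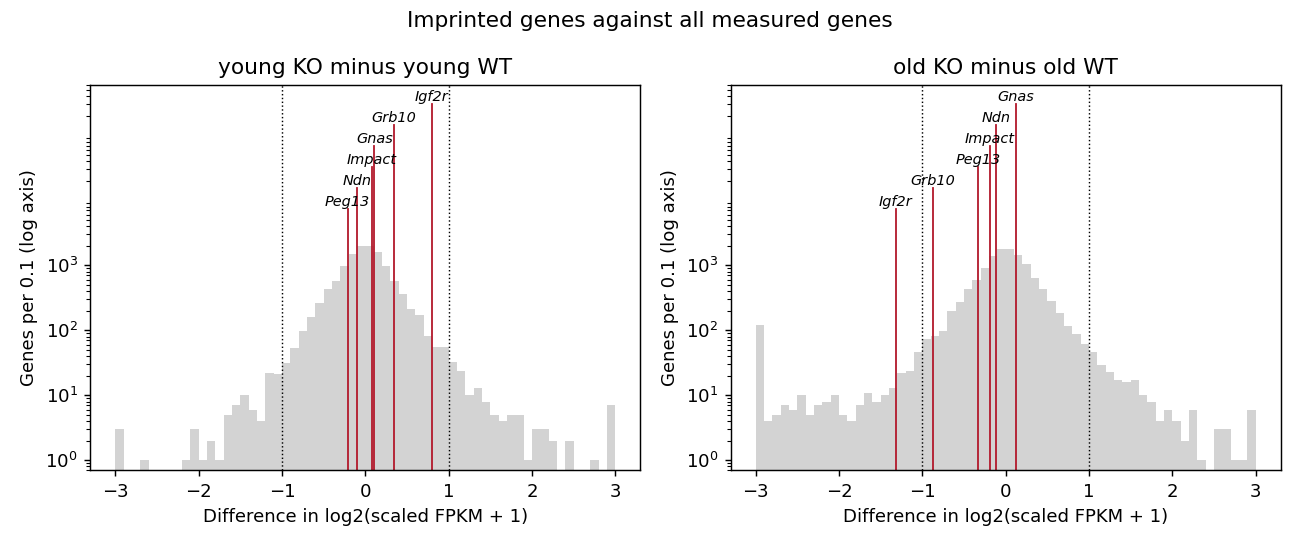
Differences in log2(scaled FPKM + 1) between KO and WT cells for all measured genes (grey, number of genes per 0.1 on a log axis, with values beyond 3 placed in the end bars) and for the 6 imprinted genes (red lines). Dotted lines mark 2-fold. Igf2r lies at 0.80 in young and at -1.32 in old cells, and the other genes except Grb10 lie near the centre at both ages.

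The second group are genes active from the paternal copy. Peg13 (ENSMUSG00000106847, chromosome 15, 72805600 to 72810324, mm10) is a long non-coding RNA inside an intron of Trappc9. Taken over its whole locus as a single exon, its values came out as whole counted units: 780 in young KO and 1047 in young WT cells, and 1754 in old KO and 2201 in old WT cells. In scaled FPKM it had 18.6 in young KO against 21.7 in young WT cells, and 21.0 in old KO against 26.5 in old WT cells. It was lower in the KO library of both ages by a small margin. The ratio of KO to WT was 0.856 in young cells (95% interval 0.779 to 0.940) and 0.790 in old cells (0.742 to 0.842). These intervals are exact binomial (Clopper-Pearson) limits on the split of the units and cover counting error only. They take each unit as an independent count, and would be too narrow if a unit of the old libraries is 1 read of a pair. The differences were -0.21 and -0.33, and 20.2% and 15.1% of all genes lay as low or lower in young and old cells. Against young WT in place of old WT cells, which adds age and sex to genotype, the old difference was -0.05.

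Trappc9, which contains Peg13 and whose unspliced reads could be counted with it, had 12.7 scaled FPKM in young KO against 11.7 in young WT cells, and 10.03 in old KO against 10.7 in old WT cells. Ago2, an Argonaute gene of the same cluster, had 44.1 against 38.1 in young KO and WT cells and 30.6 against 32.7 in old KO and WT cells. In young cells both neighbours were slightly higher in KO while Peg13 was lower.

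Ndn (ENSMUSG00000033585, chromosome 7, 62348277 to 62349928, mm10) encodes necdin, a growth suppressor of the MAGE family known in stem cell quiescence. It rested on few units: 21 (exact 95% Poisson interval 13 to 32.1) in young KO, 27 (17.8 to 39.3) in young WT, 36 (25.2 to 49.8) in old KO and 41 (29.4 to 55.6) in old WT cells. In scaled FPKM these were 1.43 in young KO against 1.60 in young WT cells, and 1.23 in old KO against 1.41 in old WT cells. The ratio of KO to WT was 0.893 (0.480 to 1.64) in young and 0.871 (0.541 to 1.40) in old cells. Both intervals include equality, so a difference was not detectable at this depth.

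Impact (ENSMUSG00000024423, chromosome 18) encodes a regulator of the translation kinase GCN2. It had 12.6 scaled FPKM in young KO against 11.9 in young WT cells, and 9.92 in old KO against 11.4 in old WT cells. The differences were 0.08 and -0.19, and the young one turned to -0.03 without scaling of the libraries. At a transcript length of 2 kb the counting error of a value would be 4.99% to 6.69%, so the young values lie within it of each other. Hrh4, its neighbour, was listed in young KO cells alone, at 0.587 scaled FPKM.

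Gnas (ENSMUSG00000027523, chromosome 2, 174284320 to 174346744, mm10) encodes the stimulatory G protein alpha subunit along with overlapping transcripts of maternal and paternal origin, which a gene-level value pools. In most tissues its main transcript comes from both copies. It had 13.5 scaled FPKM in young KO against 12.4 in young WT cells, and 13.4 in old KO against 12.2 in old WT cells. Its 4 values had the narrowest range of the 6 genes. The differences were 0.11 and 0.12, of which the young one turned to -0.00 without scaling. Nespas, the antisense transcript at its upstream end, overlaps 11117 bases of the Gnas locus. It had 2.13 in young KO and 1.85 in young WT cells and was listed in neither old library.

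Snrpn, a spliceosome protein gene of the Ndn cluster, Meg3, a maternally expressed long non-coding RNA, Mest, a hydrolase gene, and Plagl1, a zinc finger transcription factor, were listed in no library by symbol or identifier. A value under the listing limit is at most 0.470 to 0.511 scaled FPKM, depending on the library, and no difference can be given for these 4 genes. Their partners were not listed either: Snurf and Magel2 beside Snrpn, Dlk1, Rian, Mirg, Rtl1 and Dio3 in the Meg3 cluster, and Hymai beside Plagl1. Of the other neighbours, Cobl and Ddc beside Grb10, Kcnk9 beside Peg13 and Slc22a2 beside Igf2r were listed nowhere. Phactr2, beside Plagl1, had 8.46 in young KO against 9.69 in young WT and 9.49 in old KO against 8.50 in old WT cells.

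Of the 6 listed genes, 4 lay above and 2 below 0 in young KO relative to young WT cells, with a median of 0.09, and 49.5% of all genes lay below 0 there. Without scaling 4 of the 6 lay below 0 and 65.8% of all genes did. In old cells 1 lay above and 5 below 0, with a median of -0.26, while 49.7% of all genes lay below 0 and their median was 0.00, and the 5 stayed below 0 under each scaling tried. Peg13 and Ndn were lower at both ages, Gnas was higher at both, and Igf2r, Grb10 and Impact were higher in young and lower in old KO cells.

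A longer list of 74 other genes reported as imprinted in at least 1 mouse tissue had 37 listed in some library. H19, Igf2, Peg3, Peg10 and Nnat were among those listed in none. On the log2(scaled FPKM + 1) scale none of the measured ones differed by 2-fold between KO and WT cells at either age, though ratios of weakly expressed ones such as Peg12 and Zrsr1, given below with their counting intervals, went past it. With 1.72% of all genes called in young and 4.3% in old cells, a count of 0 among 34 and 31 genes says nothing particular of the list. In young cells 18 of 34 lay below 0, with a median of -0.05, close to the 49.5% of all genes, and 23 of 34 did without scaling. In old cells 24 of 31 lay below 0, with a median of -0.23, and 24 or 25 of 31 did under each scaling, where all genes had 49.7% to 62.6%. At both ages 14 of 31 were lower in KO, against 25.3% of the 11873 genes measured in both. A gene entered these counts when 1 library of the pair reached a scaled value of 1. Peg12, Inpp5f and Mkrn3 did so in young WT cells alone, and Peg12, Ppp1r9a and Zrsr1 in old WT cells alone. Their direction was thus fixed by the filter, and no gene of the list entered through KO cells alone. Genes that share a locus, such as Mcts2 and H13, were counted as separate genes. Past 1.5-fold were Peg12 (lower) and Phlda2 (higher) in young KO cells, where 3.64% of all genes were lower and 4.13% higher by as much. In old KO cells they were Htr2a and Zrsr1, both lower, with differences of -0.89 and -0.67. These 2 of 31 are near the background, where 6.48% of all genes were lower by 1.5-fold or more. Htr2a, a serotonin receptor gene, had 2.13 scaled FPKM in young KO against 2.25 in young WT cells, and 1.2 in old KO against 3.09 in old WT cells.

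Peg12, a paternally expressed gene of the Ndn cluster, had 0.513 scaled FPKM in young KO against 1.52 in young WT cells, and 0.792 in old KO against 1.68 in old WT cells. Its single exon gave 12 and 41 counted units in young KO and WT and 37 and 78 in old KO and WT cells. The ratio of KO to WT was 0.336 (95% interval 0.161 to 0.652) in young and 0.470 (0.309 to 0.704) in old cells, both below equality by more than counting error. The young KO value of Peg12 lay at the listing limit, which is 0.510 scaled FPKM in that library. Its neighbour Mkrn3 had 27 units in young WT cells, at 1.04 scaled FPKM, and was not listed in the other 3 libraries. Atp10a, farther along the cluster, differed by -0.19 in young and 0.33 in old cells. Ube3a had 9.42 against 7.55 in young KO and WT and 3.03 against 4.12 in old KO and WT cells. Ube3a, a ubiquitin ligase gene, is imprinted in neurons, and its KO value was higher in young and lower in old cells.

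Mcts2 and Zrsr1, like H13, Mkrn3, Atp10a, Phlda2, Htr2a, Kcnq1ot1 and Hlf, were chosen after their values were seen. Mcts2 and Zrsr1 are paternally expressed single-exon genes whose values are also whole counted units. Mcts2, inside an intron of H13, had 129 units in young KO and 193 in young WT cells, and 350 in old KO and 463 in old WT cells. Its KO to WT ratio was 0.768 (0.610 to 0.965) in young and 0.75 (0.651 to 0.863) in old cells, lower at both ages. H13 itself had 15.9 scaled FPKM in young KO against 16.98 in young WT and 19.5 in old KO against 23.0 in old WT cells, and reads of the 2 genes may be shared. Zrsr1, a splicing factor gene inside Commd1, was level in young cells, with a ratio of 1.03 (0.634 to 1.67), and lower in old KO cells, at 51 units against 114 in old WT cells and a ratio of 0.444 (0.312 to 0.623). For Zrsr1 the old WT library, at 1.98 scaled FPKM, was again the highest of the 4.

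**Figure D4:**
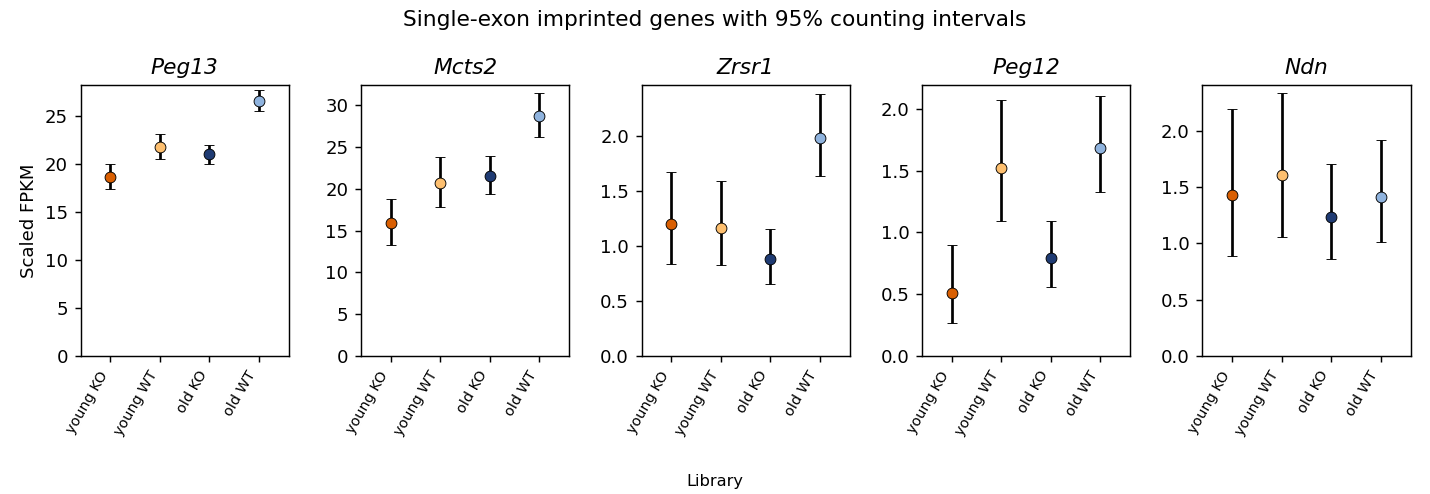
Scaled FPKM of 5 paternally expressed genes whose single exon gives whole counted units. Points are libraries and bars exact 95% Poisson intervals, which cover counting error only. Peg13, Mcts2 and Peg12 are lower in the KO library at both ages, and Zrsr1 in old cells. The KO and WT intervals overlap for Ndn at both ages, and for Mcts2 and Zrsr1 in young cells.

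Phlda2 and Slc22a3, maternally expressed genes outside the 10, went in opposite directions in young cells and were both lower in old KO cells. Phlda2, which restrains placental growth, had 4.92 scaled FPKM in young KO against 2.46 in young WT cells, and 1.34 in old KO against 2.41 in old WT cells. Its KO value was thus the higher in young and the lower in old cells, as for Igf2r and Grb10. The erythroid marker sums and the number of stromal markers listed, given above, were ordered in the same way. The stromal sums were not, with 21.2 in old KO against 20.5 in old WT cells. Slc22a3, an organic cation transporter beside Igf2r that is imprinted in placenta, had 43.5 against 49.2 in young KO and WT and 22.1 against 33.5 in old KO and WT cells, lower in KO at both ages. Kcnq1ot1, the paternal antisense RNA that controls the Phlda2 cluster, had 15.4 against 13.9 in young KO and WT cells and 12.1 against 12.2 in old KO and WT cells. Copg2, beside Mest, had 12.9 against 14.2 in young KO and WT and 10.6 against 11.1 in old KO and WT cells.

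**Figure D5:**
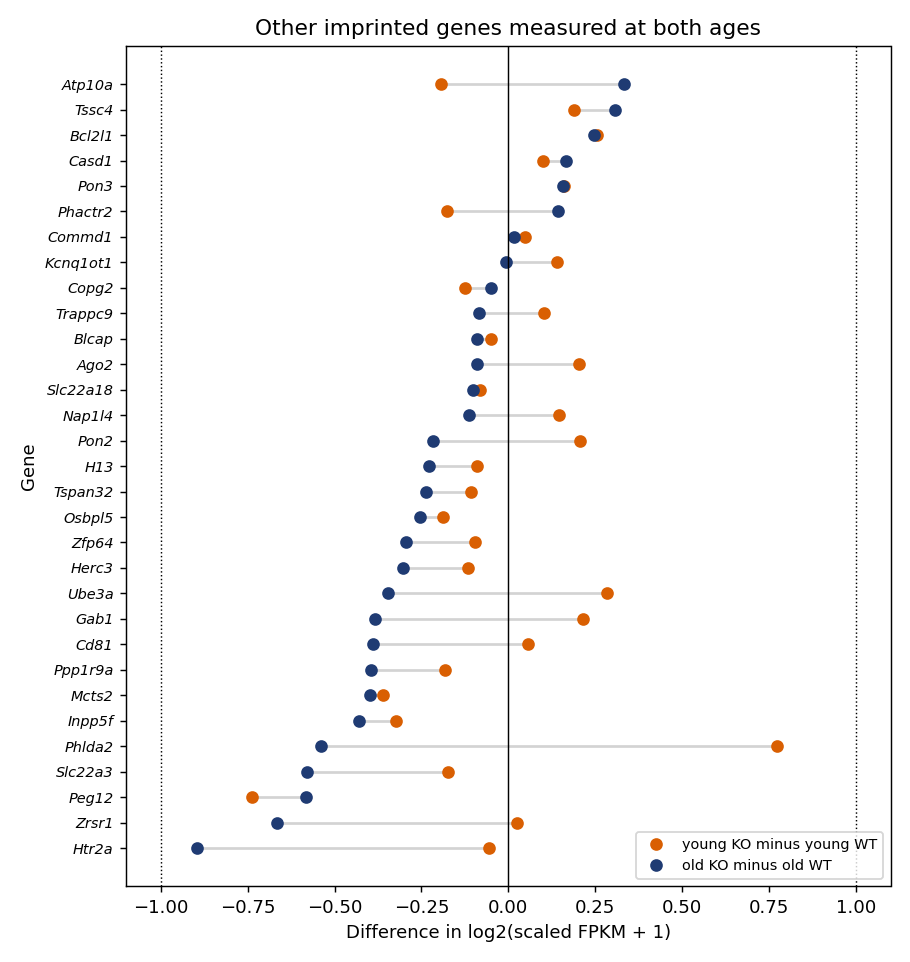
Differences in log2(scaled FPKM + 1) between KO and WT cells for 31 other imprinted genes measured at both ages, in young (orange) and old (blue) cells, ordered by the old difference. Dotted lines mark 2-fold, which no gene passes. In old cells 24 of the 31 lie below 0, and Phlda2 lies at 0.77 in young and -0.54 in old cells. Peg12, Ppp1r9a and Zrsr1 passed the filter in old cells through the WT library alone.

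A further list held 20 genes of enzymes and factors that place or keep imprints, Setd2 among them. Of these 18 were listed in some library and 17 were measured in each KO comparison. Their differences were -0.29 to 0.26 in young and -0.20 to 0.20 in old cells. None reached 1.5-fold at either age, where 7.77% of all genes did in young and 12% in old cells. A count of 0 among 17 genes thus says nothing particular of the list. Their median difference was -0.02 in young and 0.02 in old cells. Dnmt1, the maintenance methyltransferase, had 103 scaled FPKM in young KO against 106 in young WT cells and 104 in old KO against 102 in old WT cells. Trim28 had 89.8 against 96.0 in young KO and WT and 76.4 against 75.4 in old KO and WT cells. Zfp445 had 39.5 against 38.7 and 30.7 against 31.5 in the same comparisons. Dnmt3b, a methyltransferase that reads H3K36 methylation, had 16.1 in young KO against 13.3 in young WT and 12.2 in old KO against 10.5 in old WT cells. Dnmt3l and Dppa3, which act in germ cells and the early embryo, were listed in no library.

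The age comparisons share each library with a KO comparison and go with sex. Old WT differed from young WT cells by 1.70 for Igf2r, the 1 gene of the 6 past 2-fold. Of 12569 genes 4.22% were higher by 2-fold or more, and 5.55% were called in either direction. Of the 6, 3 lay below 0 there, beside 50.8% of all genes. Grb10 followed at 0.45 and Peg13 at 0.28. In KO cells none of the 6 differed by 2-fold between ages, where 7.19% of 12534 genes did, and 5 of the 6 lay below 0, beside 50.2% of all genes. Grb10, at -0.78, was lower by more than 1.5-fold, as 8.01% of all genes were, and Igf2r was at -0.41. For Igf2r and Grb10 the old library was thus the higher of the WT pair and the lower of the KO pair.

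By the distance between centred profiles over the 4 libraries, among 2591 named genes at 5 scaled FPKM or more with a range of at least 0.5, the gene most like Igf2r was Ell2, a transcription elongation factor gene. Ell2 had 11.4 in young KO against 6.43 in young WT and 7.44 in old KO against 23.4 in old WT cells, a distance of 0.17 on the log2 scale. Glcci1 came next, at 0.30. Nearest to Grb10 were Aplp2, with 31.0 against 22.1 in young KO and WT and 16.8 against 32.9 in old KO and WT cells, at 0.10, and St3gal5 at 0.12. Nearest to Peg13 were Fndc3a at 0.03 and Ptpn18 at 0.05. Over 4 libraries such likeness is a description alone.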

How the data were processed

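Each of the authors' deposited RNA files gives 1 FPKM value per gene, per the file headers. HISAT2 2.0.4, StringTie 1.3.0, CASAVA, FastQC, Trimmomatic and Bismark, and the build mm10 (GRCm38), are named in the submitters' processing notes without their roles. The libraries used 100 ng of total RNA each, per the labels' protocols. Values were summed by symbol (14455 symbols) and divided by median-of-ratios factors over 10935 genes at 1 FPKM or more in all 4 libraries: 0.981 for young KO, 1.06 for young WT, 0.979 for old KO and 0.982 for old WT. An unlisted gene was set to 0.5 FPKM. Differences are of log2(scaled FPKM + 1). A gene was measured when 1 of the 2 libraries reached a scaled value of 1, and called at 2-fold or 1.5-fold.

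Counted units were FPKM times locus length divided by the spacing of low values of loci under 1500 bp, which lay within 0.02 of a whole multiple for 62.5%, 61.8%, 66.3% and 70.7% of values in young KO, young WT, old KO and old WT. Of these multiples 1.15% and 1.42% were odd in young KO and young WT, against 57.3% and 52.0% in old KO and old WT, so 1 unit was taken as 2 steps in the young libraries. Counting intervals cover counting error only and take units as independent counts. Older symbols were matched for 2 genes, Whsc1 and Whsc1l1. The calling and the spacing were tested on simulated data. Named genes were the 10 genes, their cluster neighbours and further imprinted genes, the 2 nearest profiles of the 3 genes of widest range, and genes that check the labels, with further ones named in the report as chosen after their values were seen. The genes and lists were chosen with earlier results of these data known. Computing used Python 3.11.15, pandas 2.3.3, NumPy 2.4.6 and SciPy 1.17.1. Alternatives were other scalings, pseudocounts, filters and values of unlisted genes. The 2 bisulfite samples were not used here.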

Additional observations from a re-analysis of the deposited data

Results flagged for a closer look

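Igf2r, Grb10 and Phlda2 differed between KO and WT cells in opposite directions at the 2 ages, by at least 0.3 each way on the log2(scaled FPKM + 1) scale. The young and old differences were 0.80 and -1.32 for Igf2r, 0.35 and -0.88 for Grb10, and 0.77 and -0.54 for Phlda2. With 1 library per group the difference between ages was not tested. Of the 11873 genes measured at both ages, 3.27% were higher in young and lower in old KO cells by at least 0.3 each way. In opposite directions of either order by that size were 5.85%. Of the other imprinted genes Phlda2 was the only 1 of 31, near that share, and it was chosen after its values were seen. The erythroid marker sums were ordered in the same way, at 668 in young KO against 280 in young WT and 184 in old KO against 274 in old WT cells, though 5 of the 14 markers were higher in old KO cells. Of the 12 stromal and endothelial markers 8 were listed in young KO against 5 in young WT cells. In old KO cells 2 were listed, against 7 in old WT cells. Some of these listings, such as those of Kdr and Cdh5, lay near the limit. The sums of the 12 were not ordered so in old cells, with 21.2 in old KO against 20.5 in old WT cells. In young cells the sums were 33.1 in KO against 31.3 in WT. The part of these cells in the values was not tested.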

How the results depend on the processing

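At 2-fold, 213 genes were called in young and 536 in old KO relative to WT cells, and 698 and 901 between ages in WT and KO cells. With a pseudocount of 0.1 these were 634, 1072, 1308 and 1663, and with one of 5 they were 44, 261, 356 and 322. With unlisted genes at 0 the KO counts were 406 in young and 812 in old cells. Of the 6 imprinted genes, 1 was called in old KO cells, 2 with a pseudocount of 0.1 and 0 with one of 5. Against young WT in place of old WT, which was chosen after the data were seen, 821 genes and 0 of the 6 were called, and Igf2r turned to 0.38. That comparison mixes age and sex with genotype, so it is no other measure of the KO difference. The margin for a move was the 95% half-width of counting error on a log2 ratio, at a nominal 2 kb for genes without counted units. It is wider than the counting errors of single values given above. Differences of the 6 genes moved by less than this margin in 116 other cases and by more in 9. In a further 72 they could not move, since these genes are listed in every library. Peg13 turned to -0.04 between ages in KO cells when libraries were scaled to a total without antigen receptor segments, Gm26917 and Gm42418, which moved the median of all genes to -0.18 there. That scaling and no scaling moved the median between ages in WT cells to -0.11. Without scaling the young KO calls split into 99 higher and 118 lower, against 126 and 87. The old KO against young KO split of 620 higher and 281 lower became 525 and 368 with upper-quartile scaling and 451 and 454 with the total. No paired analysis was possible because each group has 1 library and the labels number no replicates. A fit of genotype with age as a term, which would take the 2 ages as repeats of 1 effect, was not run.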
